A study of Mus musculus with 10 samples.

Results

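The effector genes of cytotoxic lymphocytes were examined in whole 4T1 tumors with and without a guide RNA against TAZ. The 10 genes are Cd8a, Cd8b1, Gzma, Gzmb, Prf1, Nkg7, Ifng, Ccl5, Klrk1 and Ncr1. They were chosen by name as genes of CD8+ T cells and natural killer (NK) cells, with earlier results of these data known, and are 10 of the 17864 genes in the table of counts. 4T1 is a mouse mammary carcinoma line used as a model of triple-negative breast cancer. RNA was sequenced from 5 tumors of 4T1 cells with Cas9 and a control guide (sgCon) and from 5 tumors of 4T1 cells with Cas9 and a guide against Wwtr1, the gene of TAZ (sgTaz). Cas9 was thus shared by both groups, and all tumors were mammary tumors without any further treatment in the labels. Per the methods, hosts were female mice, BALB/c or SCID, aged 6 to 8 weeks, and cells were placed in a mammary fat pad. Which of these hosts carried the sequenced tumors, and whether the lines were clones, is not given in the sources used here. SCID mice lack mature T and B cells, and in these tumors Cd3e, a chain of the T cell receptor complex, was detected in all 10, at 9.24 CPM or more. RNA was measured from all cells of a tumor together, so that fewer cells of a type and less RNA per cell cannot be told apart.

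Cytotoxic lymphocytes kill target cells by releasing granules. Perforin (Prf1) opens the membrane of the target, and granzymes (Gzma, Gzmb) enter and cleave proteins that lead to its death. CD8+ T cells recognise peptides on MHC class I with the T cell receptor and the CD8 co-receptor, whereas NK cells and activated CD8+ T cells also read stress ligands through NKG2D, the receptor encoded by Klrk1. Both cell types secrete interferon-gamma (Ifng), which raises antigen presentation and the production of T cell-attracting chemokines in surrounding cells, and Ccl5, a chemokine that attracts T cells, NK cells and myeloid cells.

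The promoters of the 3 members with higher sgTaz values at an unadjusted p below 0.05, Gzmb, Ifng and Klrk1, are shown first. They were picked by these p-values, and none had an adjusted p below 0.05 in the main test, that of edgeR. Each line gives the 250 bases before the RefSeq start on GRCm38.p6, 5′ to 3′ on the strand of the gene.
Gzmb, chr14:56262335-56262584, minus strand: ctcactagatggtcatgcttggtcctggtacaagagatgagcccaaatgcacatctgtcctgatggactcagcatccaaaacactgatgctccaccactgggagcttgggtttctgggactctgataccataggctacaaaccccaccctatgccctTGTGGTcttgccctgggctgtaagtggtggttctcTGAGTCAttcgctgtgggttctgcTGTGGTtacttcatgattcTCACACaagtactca
Ifng, chr10:118440796-118441045, plus strand: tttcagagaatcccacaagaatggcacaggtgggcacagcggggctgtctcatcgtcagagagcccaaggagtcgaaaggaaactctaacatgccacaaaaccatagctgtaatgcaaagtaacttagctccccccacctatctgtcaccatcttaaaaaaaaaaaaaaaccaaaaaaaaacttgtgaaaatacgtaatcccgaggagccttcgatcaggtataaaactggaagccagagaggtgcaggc
Klrk1, chr6:129623865-129624114, minus strand: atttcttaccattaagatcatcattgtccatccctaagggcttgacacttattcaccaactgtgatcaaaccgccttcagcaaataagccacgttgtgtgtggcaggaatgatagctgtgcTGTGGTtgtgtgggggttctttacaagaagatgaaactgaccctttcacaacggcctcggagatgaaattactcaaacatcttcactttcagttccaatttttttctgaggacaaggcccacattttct
Capitals mark matches, on either strand, to 4 motifs of factors that act in lymphocytes: TGANTCA of AP-1, TGTGGT of RUNX factors, ACGTCA as a CRE half-site, and TCACAC of T-box factors. The Gzmb promoter held 1 AP-1 match, 2 RUNX matches and 1 T-box match, the Klrk1 promoter held 1 RUNX match, and the Ifng promoter held none of these letters. The RUNX letters were found in 14.2% of all 27025 mouse promoters of this length, the T-box letters in 12.2%, the AP-1 letters in 6.87% and the CRE letters in 6.56%. RefSeq promoters were found for 8 of the 10 members, with none for Cd8b1 and Ccl5. Of the others, Ncr1 held 2 RUNX matches and 1 T-box match, Nkg7 held 1 of each, Prf1 held 1 RUNX match and 1 CRE match, Gzma held 1 RUNX match, and Cd8a held none. A match is a description of the sequence and was not tested as a binding site.

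Total counts were between 14753922 and 19595821 in sgCon tumors (median 17155103) and between 12185383 and 18395558 in sgTaz tumors (median 15566873). Levels are given as CPM, counts scaled to a common library total after TMM normalization by edgeR, and 3 counts corresponded to 0.153 to 0.246 CPM. Wwtr1 RNA was lower in value in sgTaz tumors, at 108 ± 19.2 CPM against 163 ± 30.2 CPM (SD, n = 5 each), with 4 of 5 sgTaz tumors below all sgCon tumors, and edgeR gave a log2 fold change of -0.59 (adjusted p = 0.096). Tumors 3 of sgCon and 5 of sgTaz had the most lymph node RNA of their groups. The lymph node stroma score, a mean log2 CPM, was 6.18 in sgCon tumor 3 against 2.64 to 4.80 in the other sgCon tumors, and 4.82 in sgTaz tumor 5 against -0.56 to 0.26 in the other sgTaz tumors. Results that rest on these tumors are given with and without them.

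Among the effector genes, Gzmb, Ifng and Klrk1 had higher values in sgTaz tumors and the CD8 beta chain, Cd8b1, had lower values, but no member passed the threshold of edgeR. All 10 members were detected at enough counts to be tested. At an adjusted p below 0.05 over 14816 genes, 0 members were higher and 0 were lower in sgTaz tumors, against 0.00675% and 0% of all genes tested. At an unadjusted p below 0.05, 3 members were higher and 1 was lower, where 9.86% of all genes were higher and 11.9% were lower. No member had groups that did not overlap, which held for 2.44% of all genes in the higher direction and 2.13% in the lower. The median log2 fold change of the members was 0.19, beside -0.019 over all genes. DESeq2, the tool named in the methods, called Gzmb and Klrk1 higher, where it called 3.28% of genes higher and 3.47% lower, and limma-voom with quality weights called Klrk1, where it called 4.63% and 5.8%.

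**Figure D1:**
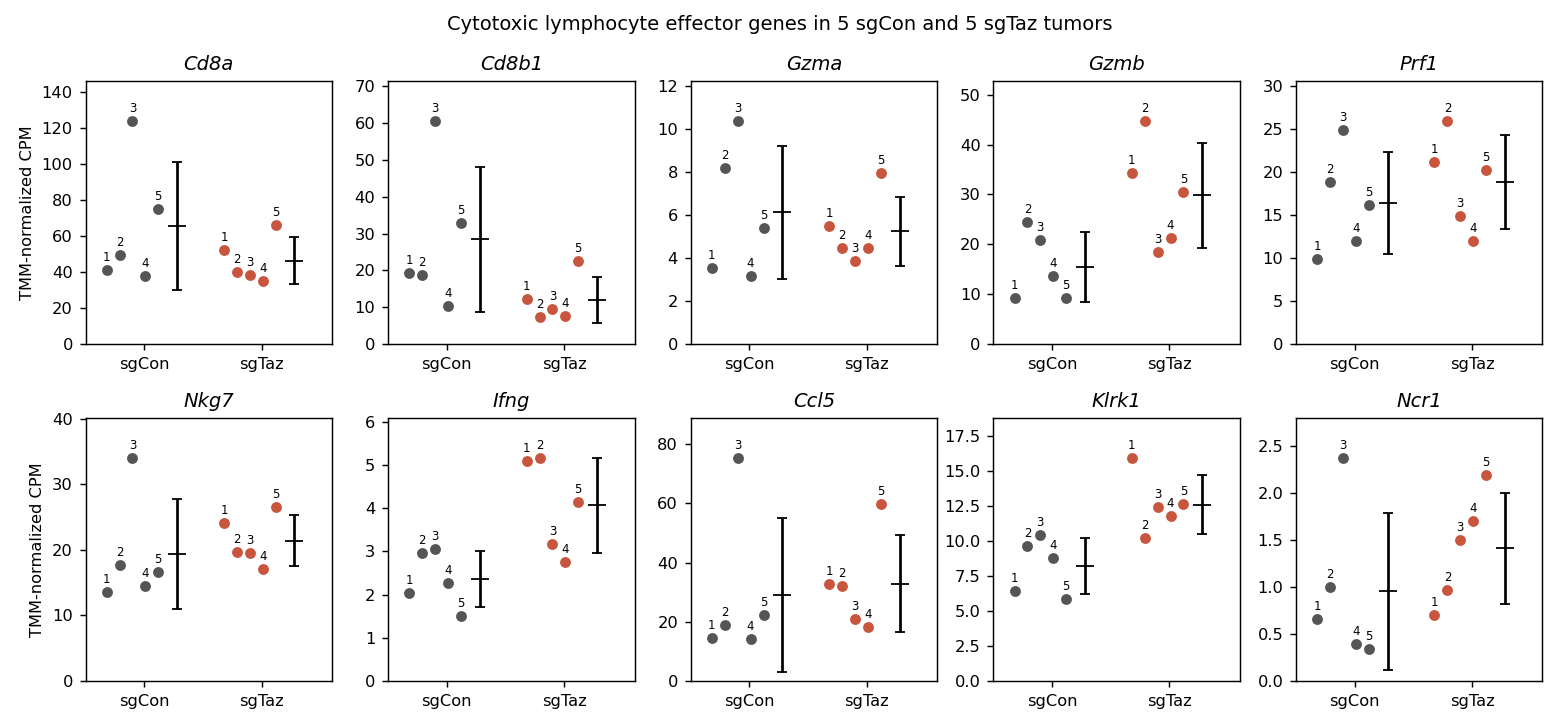
TMM-normalized CPM of the 10 effector genes, with a panel per gene, a point per tumor labelled with its replicate number, and the mean with SD of each group (n = 5) beside the points. For Ifng and Klrk1, 4 of 5 sgTaz tumors lie above all sgCon tumors, while sgCon tumor 3 is the highest of its group for 9 of the 10 genes.

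Cd8a and Cd8b1 encode the alpha and beta chains of the CD8 co-receptor. The alpha chain pairs with the beta chain on CD8+ T cells and can also form a homodimer, which is found on some dendritic cells and unconventional T cells. Cd8a (ENSMUSG00000053977.13, chr6:71373427-71379173 of mm10, plus strand) was at 41.3, 49.7, 124, 38.1 and 74.9 CPM in sgCon tumors 1 to 5 and at 52.3, 40.1, 38.3, 35 and 66.4 CPM in sgTaz tumors 1 to 5. The groups overlapped for most of their range, with sgCon tumor 3 far above the others and 1 sgTaz tumor below all sgCon tumors. The log2 fold change of Cd8a was -0.50 (95% interval -1.19 to 0.20, adjusted p = 0.374 from edgeR). Cd8b1 (ENSMUSG00000053044.8, chr6:71322788-71337494, plus strand), its neighbour, was at 19.4, 18.9, 60.5, 10.5 and 33 CPM in sgCon tumors and at 12.4, 7.49, 9.59, 7.77 and 22.6 CPM in sgTaz tumors. Here 3 sgTaz tumors lay below all sgCon tumors, and sgTaz tumor 5 lay within the sgCon range. The log2 fold change of Cd8b1 was -1.25 (95% interval -2.25 to -0.25, adjusted p = 0.16 from edgeR). It was -1.61 (adjusted p = 0.0924) without sgTaz tumor 5, -0.76 (adjusted p = 0.29) without sgCon tumor 3 and -1.11 (adjusted p = 0.104) without both. In all of these fits Cd8b1 had the lower value in sgTaz tumors and did not pass the threshold.

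The granule genes did not share a direction. Gzmb (ENSMUSG00000015437.5, chr14:56258838-56262260, minus strand), the granzyme that cleaves caspases, was at 9.19, 24.5, 20.9, 13.7 and 9.18 CPM in sgCon tumors 1 to 5 and at 34.3, 44.7, 18.4, 21.2 and 30.6 CPM in sgTaz tumors 1 to 5. In 3 sgTaz tumors Gzmb was above all sgCon tumors, and the other 2 lay among the upper sgCon tumors. Its level was 1.92-fold higher in sgTaz tumors (log2 fold change 0.94, standard error 0.32, 95% interval 0.24 to 1.65, adjusted p = 0.141 from edgeR and 0.0426 from DESeq2). Gzma (ENSMUSG00000023132.8, chr13:113093825-113100981, minus strand), a tryptase granzyme, was at 3.54, 8.16, 10.4, 3.16 and 5.41 CPM in sgCon tumors and at 5.47, 4.46, 3.86, 4.45 and 7.93 CPM in sgTaz tumors. All sgTaz tumors lay inside the sgCon range, and the log2 fold change of Gzma was -0.23 (95% interval -0.97 to 0.52, adjusted p = 0.723 from edgeR). Without sgCon tumor 3 it was 0.046.

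Prf1 (ENSMUSG00000037202.6, chr10:61297833-61304680, plus strand) was at 9.91, 18.9, 25, 12.1 and 16.2 CPM in sgCon tumors and at 21.2, 26, 14.9, 12.1 and 20.3 CPM in sgTaz tumors. Its groups overlapped almost completely, with 1 sgTaz tumor above all sgCon tumors, and its log2 fold change was 0.20 (95% interval -0.38 to 0.78, adjusted p = 0.685 from edgeR). Nkg7 (ENSMUSG00000004612.9, chr7:43437073-43438249, plus strand), a membrane protein of cytotoxic granules that is needed for their release, was at 13.6, 17.7, 34.1, 14.5 and 16.6 CPM in sgCon tumors and at 24.1, 19.7, 19.5, 17.1 and 26.6 CPM in sgTaz tumors. Except for sgCon tumor 3, which was the highest of all, 4 of 5 sgTaz tumors were above the sgCon tumors and the remaining one was below only sgCon tumor 2. The log2 fold change of Nkg7 was 0.15 (95% interval -0.38 to 0.68, adjusted p = 0.749 from edgeR), and 0.46 (adjusted p = 0.16) without sgCon tumor 3. For Prf1 the value without this tumor was 0.41 (adjusted p = 0.387).

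The cytokine of the set, Ifng (ENSMUSG00000055170.4, chr10:118441046-118445892, plus strand), was at 2.04, 2.95, 3.06, 2.28 and 1.51 CPM in sgCon tumors 1 to 5 and at 5.09, 5.17, 3.16, 2.75 and 4.15 CPM in sgTaz tumors 1 to 5. All sgTaz tumors but tumor 4 were above every sgCon tumor. Ifng was 1.71-fold higher (log2 fold change 0.78, standard error 0.26, 95% interval 0.21 to 1.34, adjusted p = 0.134 from edgeR and 0.0605 from DESeq2), on 22 to 80 counts per tumor. It shares 336 of its 1295 exon bases with Gm49751 on the same strand in the GENCODE M21 annotation, so that reads of this stretch could be assigned to either or to none. The chemokine Ccl5 (ENSMUSG00000035042.2, chr11:83525778-83530518, minus strand) was at 14.5, 18.8, 75.4, 14.3 and 22.3 CPM in sgCon tumors and at 32.8, 32.1, 20.9, 18.3 and 59.7 CPM in sgTaz tumors. The highest tumor of each group was the one with the most lymph node RNA, sgCon tumor 3 and sgTaz tumor 5. The log2 fold change of Ccl5 was 0.17 (95% interval -0.90 to 1.25, adjusted p = 0.864 from edgeR), 0.91 (adjusted p = 0.18) without sgCon tumor 3, -0.16 without sgTaz tumor 5 and 0.59 (adjusted p = 0.194) without both. The difference of mean log2 CPM of Ccl5, taken again without 1 tumor at a time, lay between 0.124 and 0.797, so that the negative value was found in the edgeR fit without sgTaz tumor 5 and not on this scale.

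Of the receptors, Klrk1 (ENSMUSG00000030149.15, chr6:129610323-129623864, minus strand) was at 6.43, 9.61, 10.4, 8.77 and 5.82 CPM in sgCon tumors 1 to 5 and at 15.9, 10.2, 12.4, 11.7 and 12.6 CPM in sgTaz tumors 1 to 5. All sgTaz tumors but tumor 2 were above every sgCon tumor. Klrk1 was 1.53-fold higher (log2 fold change 0.61, standard error 0.19, 95% interval 0.20 to 1.02, adjusted p = 0.117 from edgeR, 0.035 from DESeq2 and 0.0341 from limma-voom). Ncr1 (ENSMUSG00000062524.4, chr7:4337724-4345164, plus strand) encodes NKp46, the activating receptor that marks NK cells and related innate lymphocytes in the mouse. It was at 0.661, 1.001, 2.37, 0.389 and 0.342 CPM in sgCon tumors and at 0.7, 0.969, 1.5, 1.7 and 2.18 CPM in sgTaz tumors, which corresponds to 5 to 38 counts. The groups overlapped, with sgCon tumor 3 the highest of the 10 tumors. The log2 fold change of Ncr1 was 0.56 (95% interval -0.58 to 1.69, adjusted p = 0.558 from edgeR) and 1.20 (adjusted p = 0.189) without sgCon tumor 3.

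The exact two-sided permutation test of log2 CPM, taken over all splits of the 10 tumors for a gene at a time, gave the 4 lowest p-values to the same genes as edgeR. The p was 0.0159 for Klrk1, with a difference of log2 CPM of 0.63 between the group means, 0.0317 for Ifng, with a difference of 0.75, and 0.0397 for Gzmb, with a difference of 0.98. For Cd8b1 the difference was -1.115 with an exact permutation p of 0.0714, and for the other 6 members the permutation p was between 0.198 and 0.754. These 10 p-values are unadjusted, and the smallest that the design allows is 0.00794.

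**Figure D2:**
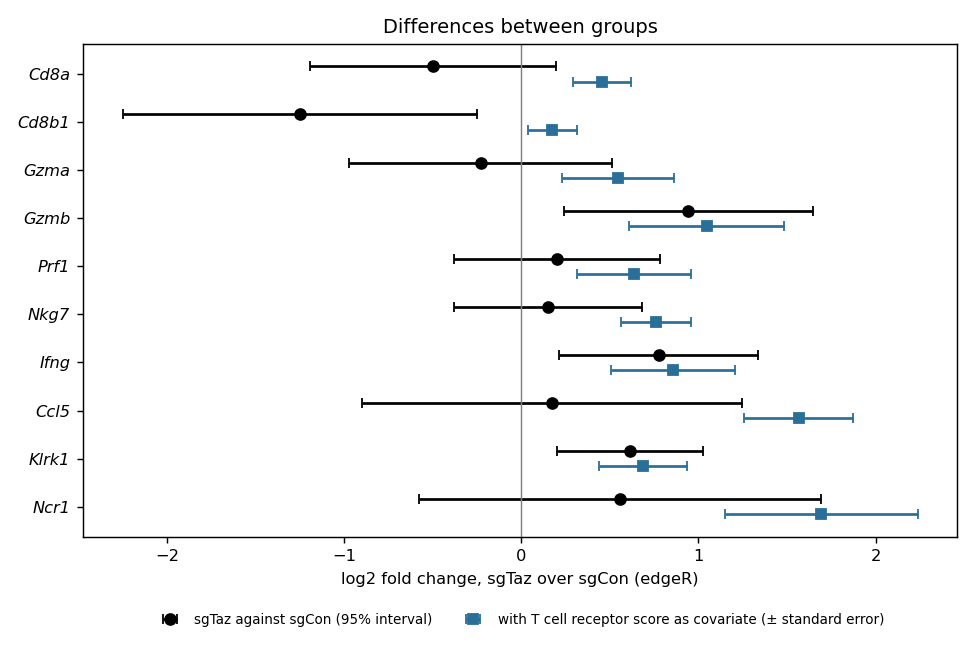
Log2 fold change of the 10 effector genes in sgTaz over sgCon tumors from edgeR, as black circles with 95% intervals, and from the fit with the T cell receptor score of each tumor as a covariate, as blue squares with standard errors. The values of Cd8a, Cd8b1 and Gzma lie below 0 in the former and above 0 in the latter.

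Per kilobase of exon, the order of the mean levels in sgCon tumors was Ccl5 (30.3 CPM per kb), Nkg7 (21.1), Cd8b1 (19.2), Cd8a (18), Gzmb (10.8), Prf1 (6.35), Gzma (6.09), Ifng (1.83), Klrk1 (1.14) and Ncr1 (0.619). In sgTaz tumors Ccl5 (34.1 CPM per kb) and Nkg7 (23.4) again led, Gzmb (20.8) stood above both CD8 chains, and Cd8a (12.8) stood above Cd8b1 (8.07). Neighbours in these orders that differ by less than the spread over tumors, such as Nkg7, Cd8b1 and Cd8a in sgCon tumors or Prf1 and Gzma in either group, cannot be ranked.

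Within the groups, many pairs of members varied together from tumor to tumor. The log2 CPM of the members was compared over the 10 tumors after the group means were taken off. Of 6 pairs chosen by cell type and role, the relation of Cd8a and Cd8b1 was past the threshold (Pearson's r = 0.953, permutation p = 0.00071, adjusted p = 0.00426, and Spearman's rho = 0.842, permutation p = 0.00558, adjusted p = 0.0335). Leaving out the 2 tumors most distant from the median of Cd8a, sgCon tumors 3 and 5, r was 0.898 with an adjusted permutation p of 0.063. For Cd8a with Gzmb, Cd8a with Ncr1, Gzma with Gzmb, Ncr1 with Klrk1 and Ccl5 with Ifng, r was between 0.317 and 0.606 and the adjusted p of r was 0.31 or more. Cd8a followed its partner chain closely, while its relation to Gzmb did not pass the test at 10 tumors.

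Over all 45 pairs, computed after the data had been seen, r was positive in 45 and lay between 0.146 for Cd8b1 with Gzmb and 0.957 for Nkg7 with Ccl5. After adjustment over the 45, Pearson's r passed in 12 pairs and Spearman's rho in 8. Values without 2 tumors leave out the 2 most distant from the median of the member that comes first in the list of 10. These tumors thus depend on the pair. For pairs with Cd8a they were sgCon tumors 3 and 5, so that sgTaz tumor 5 was kept. Ccl5 followed Cd8a (r = 0.944, permutation p = 9e-05, adjusted p = 0.00405, rho = 0.915, adjusted p = 0.00405, and r = 0.931 without 2 tumors) and Nkg7 (r = 0.957, permutation p = 0.00082, adjusted p = 0.0112, rho = 0.891, adjusted p = 0.0163, and r = 0.803 without 2 tumors). Ifng followed Gzmb (r = 0.914, permutation p = 0.00211, adjusted p = 0.0153, rho = 0.867, adjusted p = 0.0322, and r = 0.913 without 2 tumors). No pair with Klrk1 or Ncr1 passed. The signs were less uniform in other measures, since rho of Cd8b1 with Gzmb was -0.103, and without 2 tumors r was below 0 for Ccl5 with Ncr1 (-0.561), Nkg7 with Ncr1 (-0.339), Gzma with Klrk1 (-0.132), Ccl5 with Klrk1 (-0.034) and Gzma with Ifng (-0.005). Ncr1 rests on 5 to 38 counts per tumor.

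The genes that followed the mean of the 10 members most closely among 14055 candidates over the 10 tumors were Snx11 (r = 0.97), Ciita (r = 0.965), Gm45871 (r = 0.964), AB124611 (r = 0.96) and Vav1 (r = 0.957), given here without a test. Ciita encodes the activator of MHC class II genes and is induced by interferon-gamma. It was at 99.9 CPM in sgCon and 136 CPM in sgTaz tumors (log2 fold change 0.45, adjusted p = 0.155 from edgeR). Vav1, a signalling protein of blood cells, was at 63.2 CPM in sgCon and 44.6 CPM in sgTaz tumors (log2 fold change -0.50, adjusted p = 0.205 from edgeR).

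Since the T cell genes as a whole were at lower values in sgTaz tumors, the members were also read against them. In the list of 13 genes of the T cell receptor and its signalling, 13 were lower at an unadjusted p below 0.05, beside 11.9% of all genes, and 0 passed the adjusted threshold of edgeR, and the median log2 fold change was -1.82. DESeq2 called 7 of them lower and limma-voom 6, beside 3.47% and 5.8% of all genes. The summed level of this list was 282 to 1310 CPM in sgCon tumors and 192 to 423 CPM in sgTaz tumors. Cd3e had a log2 fold change of -1.41 (adjusted p = 0.156 from edgeR), and Cd4, the co-receptor of helper T cells, had one of -2.26 (adjusted p = 0.125). Of the CD4, naive and memory T cell list, 9 of 9 genes were lower at an unadjusted p below 0.05, with a median of -2.26, among them Ccr7, the receptor for entry into lymph nodes, at -1.75 (adjusted p = 0.175). No gene of this list passed with edgeR, and DESeq2 and limma-voom each called 6 lower. Against these medians, the value of Cd8a (-0.50) was nearer to 0, and that of Cd8b1 (-1.25) was between. The members higher in sgTaz tumors therefore stood beside T cell lists with lower values in the same tumors.

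The counts of the CD8 chains were set against Cd3e and Cd4 within each tumor, as a description chosen after the data had been seen and without a test. Cd8b1 per Cd3e count was 0.837, 0.8, 0.654, 0.855 and 0.651 in sgCon tumors and 0.878, 0.811, 0.772, 0.691 and 0.779 in sgTaz tumors, with means of 0.76 ± 0.0995 and 0.786 ± 0.0678 (SD, n = 5). The means of Cd8b1 per Cd3e count differed by less than the spread between tumors. Cd8a per Cd4 count was 1.29, 1.59, 0.773, 3.18 and 1.17 in sgCon tumors and 6.68, 8.17, 3.94, 5.33 and 1.95 in sgTaz tumors, and all sgTaz tumors but tumor 5 were above every sgCon tumor. Cd8b1 per Cd8a count was 0.469, 0.38, 0.488, 0.275 and 0.441 in sgCon tumors and 0.236, 0.187, 0.251, 0.222 and 0.341 in sgTaz tumors. Per Cd8a count, the beta chain was below all sgCon tumors in 4 of 5 sgTaz tumors.

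The members were also set against Cd8a. Since the mean of Cd8a was lower in sgTaz tumors (46.4 against 65.6 CPM), a division by it raises the ratio of sgTaz to sgCon for any gene, and the values are a description only. Nkg7 per Cd8a count was 0.33, 0.355, 0.275, 0.381 and 0.222 in sgCon tumors and 0.461, 0.491, 0.51, 0.488 and 0.401 in sgTaz tumors. Ifng per Cd8a count was 0.0494, 0.0594, 0.0246, 0.0597 and 0.0201 in sgCon tumors and 0.0973, 0.129, 0.0826, 0.0787 and 0.0625 in sgTaz tumors. These 2 members did not overlap between the groups, which held for 0.472% of all genes per Cd8a count in the higher direction and 0.574% in the lower. Gzmb per Cd8a count had a mean of 0.273 ± 0.151 in sgCon and 0.664 ± 0.265 in sgTaz tumors (SD, n = 5), with 3 sgTaz tumors above all sgCon tumors. Among the 8 members other than the CD8 chains, the ratio of the sgTaz to the sgCon mean was between 1.15 for Gzma and 2.43 for Gzmb, and it was 1.5 for Nkg7, 1.55 for Prf1, 1.69 for Ccl5, 1.9 for Klrk1, 2.11 for Ifng and 2.26 for Ncr1. Cd8b1 was the member with a ratio below 1, at 0.602, and for Cd8b1 and Gzma no sgTaz tumor was above all sgCon tumors.

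**Figure D3:**
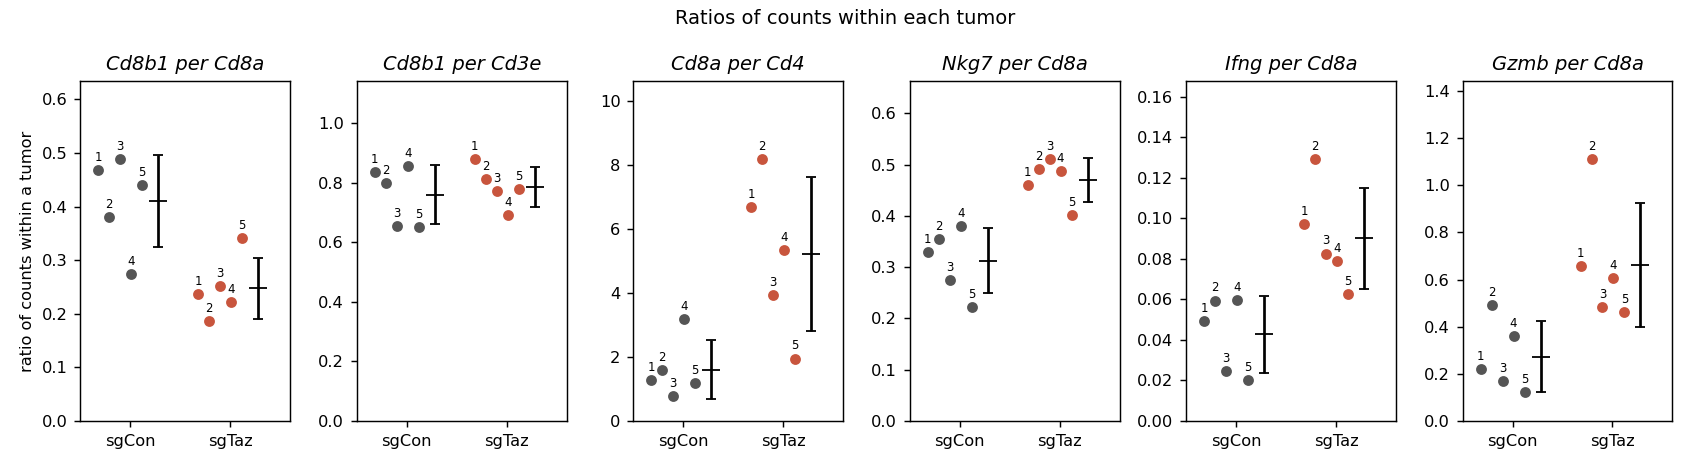
Ratios of counts within each tumor, with a point per tumor labelled with its replicate number and the mean with SD of each group (n = 5) beside the points. The means of Cd8b1 per Cd3e are 0.76 and 0.786, while all 5 sgTaz tumors lie above all sgCon tumors for Nkg7 and Ifng per Cd8a.

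A fit with the T cell receptor score of each tumor as a covariate compared the groups at equal score, for the score defined as the mean log2 CPM of the 13 genes. All 10 members then had positive log2 fold changes, and 0 passed the adjusted threshold of edgeR. At an unadjusted p below 0.05, 7 members were higher, where 6.34% of all genes were higher and 6.3% were lower. The log2 fold change was 1.57 for Ccl5 (standard error 0.31, unadjusted p = 0.00032, adjusted p = 0.187), 0.76 for Nkg7 (standard error 0.20, adjusted p = 0.223), 0.46 for Cd8a (standard error 0.16, adjusted p = 0.306) and 0.18 for Cd8b1 (standard error 0.14, adjusted p = 0.591). The values of Gzmb (1.05), Ifng (0.86) and Klrk1 (0.69) were near those without the covariate. The score was 3.35 to 6.305 in sgCon tumors, 2.75 to 3.06 in sgTaz tumors 1 to 4 and 4.47 in sgTaz tumor 5. The groups thus share the range of the T cell receptor score through sgTaz tumor 5 alone, which limits a comparison at equal score. With the lymph node stroma score as the covariate, the 10 values were again positive, 0 passed the adjusted threshold, and 6 were higher at an unadjusted p below 0.05, where 5.38% of all genes were higher and 5.87% were lower. Only sgTaz tumor 5 lay within the sgCon range of this score, with the other 4 sgTaz tumors below every sgCon tumor, so that the groups share its range through that tumor alone.

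**Figure D4:**
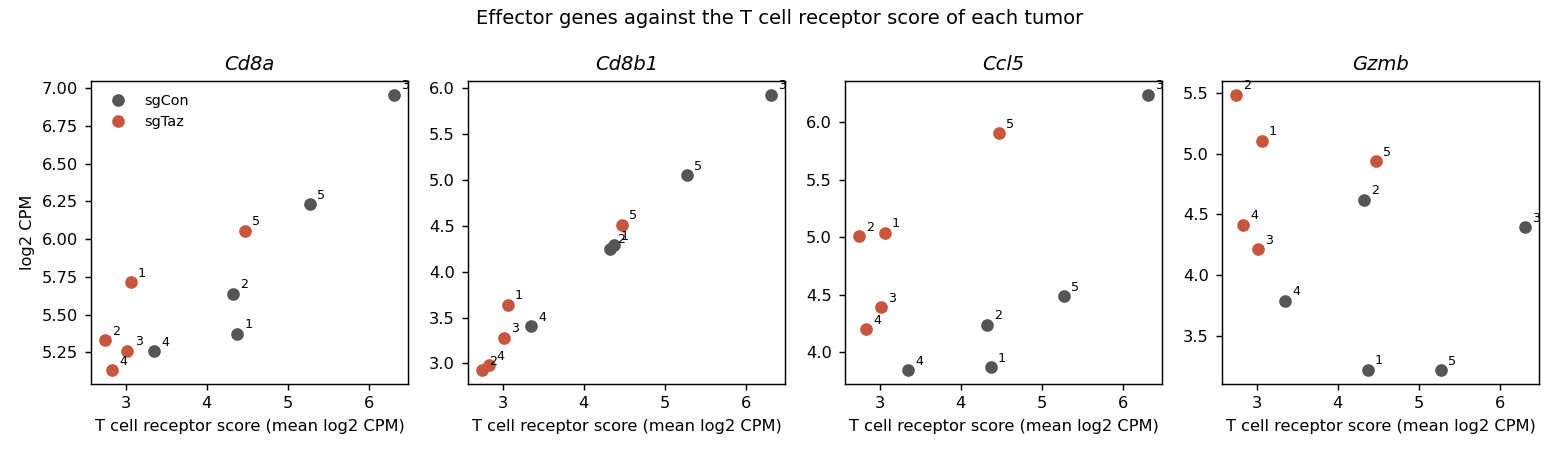
Log2 CPM of Cd8a, Cd8b1, Ccl5 and Gzmb against the T cell receptor score of each tumor, with a point per tumor labelled with its replicate number. For Cd8b1 the 10 tumors of both groups lie along 1 line, for Ccl5 sgTaz tumor 5 lies above sgCon tumors 1 and 2 of like score, and for Gzmb the sgTaz tumors with the lowest scores include the highest values.

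Macrophage genes were also compared, since these cells can take part in interferon-gamma and chemokine signalling. All 8 macrophage markers had higher values in sgTaz tumors, 5 of them at an unadjusted p below 0.05, beside 9.86% of all genes. With edgeR 0 passed the adjusted threshold. DESeq2 called 3 higher and limma-voom 4, beside 3.28% and 4.63% of all genes. Summed levels were 757 to 1779 CPM in sgCon and 1535 to 2110 CPM in sgTaz tumors. With the macrophage score as the covariate, the log2 fold change was 0.66 for Gzmb (adjusted p = 0.614 from edgeR), 0.65 for Ifng (adjusted p = 0.589) and 0.38 for Klrk1 (adjusted p = 0.614), while Ccl5 was at -0.016 and Ncr1 at -0.36. In this fit 0 members were higher or lower at an unadjusted p below 0.05, where 4.48% of genes were higher and 4.58% lower. The part of macrophages and of lymph node tissue in the differences of the members was not tested. In the other lists, 4 of 8 epithelial and 3 of 6 neutrophil markers were lower, 2 of 6 mast cell markers were higher, 1 of 6 lymph node stroma genes was lower and 0 of 4 plasmacytoid dendritic cell markers differed at an unadjusted p below 0.05 without a covariate, where 9.86% of all genes were higher and 11.9% lower. Of the B cell list, 9 of 9 genes had lower values in sgTaz tumors, 7 of them at an unadjusted p below 0.05, and the summed level was 72.9 to 988 CPM in sgCon tumors, 7.56 to 22.5 CPM in sgTaz tumors 1 to 4 and 230.3 CPM in sgTaz tumor 5. Ptprc, the common leukocyte antigen CD45, had a log2 fold change of -0.86 (adjusted p = 0.222 from edgeR).

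The further genes of granules and killing had values on both sides of 0. Of 19 tested, 2 were higher and 0 lower at an unadjusted p below 0.05, a share near the 9.86% of all genes that were higher, 0 passed the adjusted threshold, and the median log2 fold change was -0.14. DESeq2 and limma-voom each called 2 higher, beside 3.28% and 4.63% of all genes. Those of DESeq2, named after their values were seen, were Tnfsf10, the death ligand TRAIL, at 52.4 CPM in sgCon and 81 CPM in sgTaz tumors (log2 fold change 0.63, adjusted p = 0.0824 from edgeR and 7.18e-05 from DESeq2), and Ctsc, the protease that activates granzymes, at 450.5 and 707 CPM (log2 fold change 0.65, adjusted p = 0.0896 from edgeR and 0.00282 from DESeq2). For both, all 5 sgTaz tumors were above all sgCon tumors, which held for 2.44% of all genes. Since both were picked by their DESeq2 results on the same values, this is no separate support. Fasl, a death ligand of lymphocytes, was at 1.06 CPM in sgCon and 1.60 CPM in sgTaz tumors, with 4 sgTaz tumors above all sgCon tumors (log2 fold change 0.59, adjusted p = 0.23 from edgeR). Gzmk, a granzyme of less mature effector cells, had a log2 fold change of 0.18 (adjusted p = 0.81), and Ctsw, a protease of cytotoxic cells, had one of -0.77 (adjusted p = 0.269). Serpinb9, which protects cells from Gzmb, had one of -0.04 (adjusted p = 0.877). Granzymes lie in clusters of related genes, and reads that related granzymes share may be lost in the counting.

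The NK cell receptors gave no common direction. Of 13 tested, 3 were higher and 2 lower at an unadjusted p below 0.05, beside 9.86% and 11.9% of all genes. With edgeR 0 passed the adjusted threshold, and the median log2 fold change was 0.099. DESeq2, which tested 14, called 1 higher and 1 lower, beside 3.28% and 3.47% of all genes. The limma-voom fit called 2 lower, beside 5.8% of all genes. Klrb1c, which encodes NK1.1, was near 0 in both groups (0.124 and 0.136 CPM) and did not pass the filter. Klrd1, which encodes CD94, had a log2 fold change of 0.10 (adjusted p = 0.83 from edgeR), and Il2rb, the receptor chain for IL-2 and IL-15, had one of -0.24 (adjusted p = 0.62). Hcst encodes DAP10, the adaptor through which NKG2D signals, and was at 4.92, 6.41, 21, 4.39 and 8.15 CPM in sgCon and at 4.46, 3.04, 3.48, 2.67 and 3.64 CPM in sgTaz tumors. Hcst was below all sgCon tumors in 4 of 5 sgTaz tumors, with a log2 fold change of -1.37 (adjusted p = 0.114 from edgeR and 0.0205 from DESeq2). The receptor gene Klrk1 and the adaptor gene Hcst thus had values in opposite directions. Of the ligands of NKG2D, 2 of 9 listed genes were in the table. At an unadjusted p below 0.05, 1 was higher, beside 9.86% of all genes.

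Among factors and cytokines that drive the effector state, 4 of 16 were higher and 1 was lower at an unadjusted p below 0.05. The shares of all genes were 9.86% and 11.9%. The median log2 fold change of the list was 0.06, with 0 past the adjusted threshold. Of 17 genes, DESeq2 called 1 higher and 2 lower, beside 3.28% and 3.47% of all genes. Among the lower was Il12a, which edgeR did not test and which is named after its values were seen (log2 fold change -3.01, adjusted p = 0.0116 from DESeq2). Il12a was at 0.976 CPM in sgCon and 0.119 CPM in sgTaz tumors, on 1 to 32 counts per tumor. The sgTaz mean lay below the level of 3 counts. The other calls, also named after their values were seen, were Stat4, lower (-1.43, adjusted p = 0.0419 from DESeq2), and Zeb2, higher (0.65, adjusted p = 0.00209 from DESeq2). Of 16 genes, limma-voom called 1 higher, beside 4.63% of all genes. Tbx21, the T-box factor T-bet, had a log2 fold change of -0.10 (adjusted p = 0.897 from edgeR), and its relative Eomes had one of -0.79 (adjusted p = 0.336). Il15, the cytokine that sustains NK cells and memory CD8+ T cells, had one of 0.13 (adjusted p = 0.679). Il12rb2, a chain of the IL-12 receptor, had one of 0.44 (adjusted p = 0.204), and it shares 1519 exon bases with Serbp1 on the opposite strand, where the strand setting of the counting is not stated.

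Downstream of interferon-gamma, 17 genes of receptor, signalling and response were tested. At an unadjusted p below 0.05, 7 were higher and 0 lower, beside 9.86% and 11.9% of all genes, 14 had higher and 3 had lower values, 0 passed the adjusted threshold of edgeR, and the median log2 fold change was 0.24. Cxcl9, a chemokine induced by interferon-gamma, was at 132, 233, 226, 194 and 123 CPM in sgCon and at 307, 216, 266, 289 and 302 CPM in sgTaz tumors, with 4 sgTaz tumors above all sgCon tumors. Its log2 fold change was 0.60 (adjusted p = 0.117 from edgeR and 0.032 from DESeq2). Cxcl10 had a log2 fold change of 0.32 (adjusted p = 0.191) and Irf1 one of 0.15 (adjusted p = 0.233). DESeq2 and limma-voom each called 5 of the 17 genes higher, beside 3.28% and 4.63% of all genes.

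On the side of Ccl5, 9 chemokines and receptors of this axis were tested. At an unadjusted p below 0.05, 2 were higher and 2 lower, beside 9.86% and 11.9% of all genes. Xcl1, a chemokine of CD8+ T and NK cells, had a log2 fold change of 0.13 (adjusted p = 0.872 from edgeR). Among 8 genes of exhaustion, 2 were higher and 1 was lower at an unadjusted p below 0.05, beside the same shares of all genes. Pdcd1, the receptor PD-1, was at 6.25, 11.8, 8.86, 10.9 and 6.23 CPM in sgCon and at 18.4, 11.8, 12.1, 12.1 and 14.3 CPM in sgTaz tumors, with a log2 fold change of 0.64 (adjusted p = 0.136 from edgeR). Havcr2, the receptor TIM-3, had one of 0.22 (adjusted p = 0.386).

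**Figure D5:**
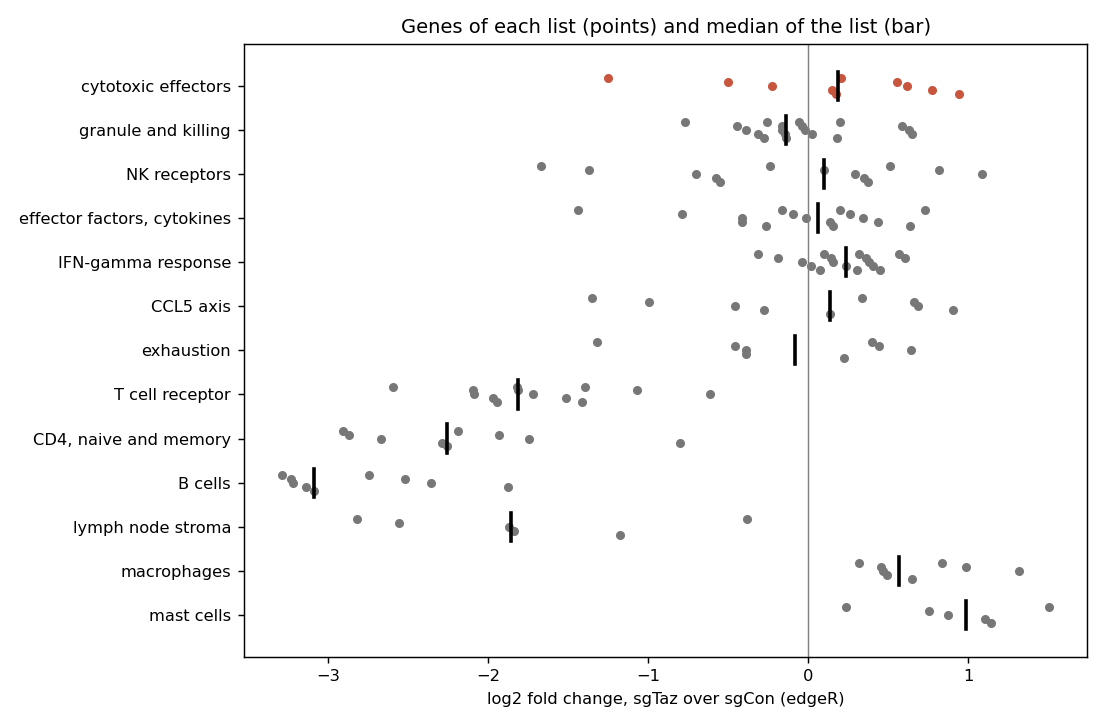
Log2 fold change from edgeR of the genes tested in each list, as points, and the median of the list, as a bar, for sgTaz over sgCon tumors. The medians of the effector genes and of the interferon-gamma response lie at 0.19 and 0.24, beside -1.82 for the T cell receptor list and -3.09 for the B cell list.

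Without sgCon tumor 3 and sgTaz tumor 5, a comparison added after the data had been seen, 0 members passed the adjusted threshold of edgeR, and 6 were higher and 1 was lower at an unadjusted p below 0.05, where 8.98% of all genes were higher and 9.58% were lower. The 6 were Gzmb, Nkg7, Ifng, Ccl5, Klrk1 and Ncr1, with log2 fold changes between 0.38 for Nkg7 and 1.07 for Gzmb, and the adjusted p of Klrk1, the lowest of them, was 0.118. The median over the 10 members was then 0.49. In the same comparison, at an adjusted p below 0.05, 3 of the 13 T cell receptor genes were lower. Of the 17 interferon-gamma response genes, 3 were higher. Also lower were 8 of 9 B cell genes, 6 of 8 CD4, naive and memory genes and 3 of 6 lymph node stroma genes. Of the 19 granule and killing genes, 1 was higher. Over all genes, 0.344% were higher and 0.918% were lower. The remaining sgTaz tumors had lymph node stroma scores of -0.56 to 0.26, against 2.64 to 4.80 in the remaining sgCon tumors. The groups thus shared no range of this score, and the same held for the T cell receptor score.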

How the data were processed

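Total RNA of 10 whole tumors was sequenced. The authors mapped the reads to mm10 (GRCm38) with STAR and GENCODE annotation, counted them per gene with featureCounts of Subread, and deposited these counts, whole numbers without normalization. Versions of these tools and the strand setting are not given in the sources used here. Groups were taken from column names and labels, and 5 further columns of the table were not used. Identifiers were matched to GENCODE M21 (17860 of 17864). Nothing in the labels states that replicates came from separate mice, and p-values measure the spread between these samples, which may be technical.

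Counts were tested in R 4.3.3 with edgeR 4.0.16 (TMM, filterByExpr by group, quasi-likelihood test, Benjamini-Hochberg adjusted p below 0.05), with 14816 genes kept and 3048 below the filter. Alternatives were DESeq2 1.42.0, limma 3.58.1 (voom with quality weights), upper-quartile and RLE scaling, the table without a filter, at least 10 counts in every tumor, each tumor left out, the replicate number as a block, and 3 covariate scores. Log2 CPM used a prior count of 2. Permutation tests were run in Python 3.11.15 with numpy 2.4.6, exactly for groups and with 100000 permutations within groups for relations. Ranks were taken with scipy 1.17.1. The tests were checked on simulated data. The floor of 3 counts covers counting error only.

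The members and lists were chosen with earlier results of these data known. Named are the 10 members, Wwtr1, 25 genes chosen by role (except 3 that are not reported here), any list gene past the adjusted threshold of edgeR (none was), and the 5 genes most like the mean of the members with at least 1 CPM. Ratios within tumors, all 45 pairs and the fit without sgCon tumor 3 and sgTaz tumor 5 were added after the data had been seen.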

Additional observations from a re-analysis of the deposited data

Results flagged for a closer look

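In a group of 5 tumors, a value was singled out when its gap to the nearest other tumor exceeded 0.71 of the range of the group, which chance gives in about 1 of 20 groups. This held in 4 of 26 groups examined, for the 10 members and 3 scores in both groups. Nkg7 in sgCon tumor 3 was at a log2 CPM of 5.095, against 3.78 to 4.15 in the other sgCon tumors. Ccl5 in sgCon tumor 3 was at a log2 CPM of 6.238, against 3.85 to 4.49. The T cell receptor score of sgTaz tumor 5 was 4.470, against 2.75 to 3.06 in the other sgTaz tumors. The lymph node stroma score of sgTaz tumor 5 was 4.816, against -0.56 to 0.26. Both tumors were the highest of their group for T cell receptor and lymph node stroma RNA, and the part of this in the values of Nkg7 and Ccl5 was not tested.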

How the results depend on the processing

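With edgeR, 1 gene was higher and 0 were lower over all genes. DESeq2 gave 527 and 558, limma-voom 686 and 860, at least 10 counts in every tumor 4 and 1, and the fit without sgCon tumor 3 and sgTaz tumor 5 gave 51 and 136. The number higher was 0 without a filter, with the replicate block and with each of the 3 covariates. With each tumor left out, 0 to 42 genes were higher and 0 to 130 lower, the most without sgTaz tumor 5. Members higher were 2 with DESeq2 and 1 with limma-voom, and 0 in the other alternatives run, with 3 to 7 at an unadjusted p below 0.05 except with the macrophage score, where there were 0. Members lower were 0 in all, with 0 or 1 at an unadjusted p below 0.05.

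Log2 fold changes with the T cell receptor and the stroma score as covariate were 0.458 and 0.415 for Cd8a, 0.176 and 0.158 for Cd8b1, and 0.547 and 0.622 for Gzma. With the macrophage score, Ccl5 was at -0.016 and Ncr1 at -0.359. Gzma turned without sgCon tumor 3 (0.046), with leave-one-out values of -0.425 to 0.046, and Ccl5 without sgTaz tumor 5 (-0.155), with values of -0.155 to 0.911. The log2 CPM difference with each tumor left out was -0.32 to 0.098 for Gzma and 0.124 to 0.797 for Ccl5, which did not turn. The cause was not tested. Gzmb, Prf1, Nkg7, Ifng and Klrk1 kept their sign in all 21 alternatives.

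The exact permutation test gave 3 members below 0.05, 1 to 5 with each tumor left out (1 without sgCon 1, sgCon 5, sgTaz 1 or sgTaz 2, and 5 without sgCon 3), and 1 without both tumors named above. Leaving out the 2 tumors most distant from the median of each pair's first gene, relations past the threshold fell from 1 to 0. The r of Ncr1 with Klrk1 was then -0.145. Ncr1 could not be fitted at 10 counts in every tumor, and 5 to 38 counts limit its precision.

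Replicate numbers did not pair the tumors. Deviations from the group means in same-numbered tumors had correlations of -0.15, -0.24, -0.049, 0.093 and 0.22, and 1 of the 5 numbers correlated best with itself. With the replicate block, 0 genes were higher and 0 lower.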
